A study of Mus musculus with 6 samples.

Results

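The interferon-stimulated genes described here are 35 genes, chosen by symbol from a fixed list, and all 35 were found among the 57010 genes of the table. They were read in bulk back skin of mice in 2 groups of 3 libraries. The control group (CON) carries the source label wild type and the treatment label Control, and the second group (MOD) carries the treatment label IMQ, for imiquimod, given on shaved back skin at 62.5 mg for 6 days in a row according to the series' design text. Before sampling, atropine and zoledronic acid were injected, and the text makes no difference between groups in this. The sources used here do not give strain, sex, age, any vehicle or any pooling of animals, and nothing says that the libraries came from separate mice, so p-values reflect only how far these samples spread, possibly for technical reasons. Imiquimod is an agonist of Toll-like receptor 7 that produces psoriasis-like inflammation in mouse skin.

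Type I interferons signal through the receptor pair Ifnar1 and Ifnar2 to a transcription factor complex that includes Irf9, which binds the interferon-stimulated response element (ISRE) of antiviral genes. Interferon-gamma signals through Ifngr1 and Ifngr2 to factors that bind the gamma-activated site (GAS), and through Irf1. The members were therefore read in 2 groups, 26 genes led mainly by type I interferon and 9 led mainly by interferon-gamma (guanylate-binding proteins, immunity-related GTPases and the ligands of the chemokine receptor CXCR3). The division is one of emphasis, since many of these genes answer to both.

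Promoter windows were searched for motifs by which such genes are known to be controlled. RefSeq windows of build GRCm38.p6 were matched by symbol for 25 of the 35 members. Ifi27l2a, Oas2, Mx1, Mx2, Usp18, Rtp4, Zbp1, Parp14, Iigp1 and Cxcl11 had no window. The 250 bases before each start site were searched on both strands for the ISRE core (TTTC, any 2 bases, then TTTC again) and for the GAS motif TTCNNNGAA, which reads the same on both strands. The last 150 bases before the start site are printed for 6 members, 4 that rose in MOD (Rsad2, Bst2, Gbp2 and Irgm1) and 2 that did not pass the test (Isg15 and Ifit1). Capitals mark the ISRE core matches, on either strand.
Rsad2 (chr12:26456453-26456602, minus strand): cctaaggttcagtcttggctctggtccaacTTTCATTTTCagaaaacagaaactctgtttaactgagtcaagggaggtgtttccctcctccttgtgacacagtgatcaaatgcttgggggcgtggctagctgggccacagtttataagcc
Bst2 (chr8:71537473-71537622, minus strand): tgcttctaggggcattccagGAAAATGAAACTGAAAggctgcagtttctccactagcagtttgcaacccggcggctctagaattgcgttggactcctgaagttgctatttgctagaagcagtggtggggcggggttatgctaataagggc
Gbp2 (chr3:142620513-142620662, plus strand): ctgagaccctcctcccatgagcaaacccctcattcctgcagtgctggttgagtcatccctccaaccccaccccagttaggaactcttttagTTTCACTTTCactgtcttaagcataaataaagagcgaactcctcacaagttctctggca
Irgm1 (chr11:48871421-48871570, minus strand): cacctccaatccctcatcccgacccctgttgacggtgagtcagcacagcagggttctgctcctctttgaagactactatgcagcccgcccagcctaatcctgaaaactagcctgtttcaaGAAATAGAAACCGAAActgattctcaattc
Isg15 (chr4:156200819-156200968, minus strand): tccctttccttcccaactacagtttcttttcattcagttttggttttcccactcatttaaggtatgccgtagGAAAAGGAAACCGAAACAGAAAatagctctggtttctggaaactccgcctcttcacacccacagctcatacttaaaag
Ifit1 (chr19:34640739-34640888, plus strand): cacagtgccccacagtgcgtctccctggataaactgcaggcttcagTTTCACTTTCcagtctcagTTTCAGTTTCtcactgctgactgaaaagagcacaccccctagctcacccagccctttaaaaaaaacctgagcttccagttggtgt

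An ISRE core was present for 16 of the 25 members with a window. These were 10 of 18 type I-led (55.6%) and 6 of 7 interferon-gamma-led members (85.7%), against 3.46% of the 27025 genes with a window. A gene with several windows counted as matched if any of them held a match. GAS matches were found for 3 of the 18 (16.7%) and 2 of the 7 (28.6%), against 8.13% of all genes. In Isg15, 3 overlapping ISRE matches lay between 78 and 57 bases before the start site, and in Bst2 the outer of 2 overlapping ISRE matches also overlapped a GAS match at 136 to 128 bases before it. A match describes letters and does not show binding.

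The values are TPM, in which a gene's reads are divided by its length and every library is scaled to one total. TPM keeps no sequencing depth, so the depth of each library is unknown and no counting interval is given. In all, 23311 to 24647 genes were above 0 in a library. MOD was compared with CON by limma on log2(TPM + 1) over the 15323 genes that reached 1 TPM in 3 or more of the 6 libraries, and "rose" and "fell" mark a Benjamini-Hochberg adjusted p below 0.05. Over all tested genes the median difference was -0.31 on the log2 scale, and -0.03 with median-of-ratios scaling. In TPM 1914 genes were higher and 5538 lower, against 2945 (19.2%) and 3085 (20.1%) with median-of-ratios scaling and 2818 (18.4%) and 3177 (20.7%) with quantile normalization. The controls were not alike. H2-Ea, an MHC class II gene that some mouse haplotypes lack, stood at 194 TPM (CON 1) and 162 TPM (CON 3), but CON 2 and every MOD library had it listed at 0. A fit with a term for this split, called the H2-Ea term, sets MOD against CON 2. All 6 keratinocyte markers were present in all libraries, but not at a steady level. Krt14, a basal keratin, rose from a mean of 1554 to 3038 TPM (1.00, limma adjusted p = 0.0097, or 0.085 with the H2-Ea term), and Dsp, which encodes the desmosomal protein desmoplakin, fell from 223 to 39.8 TPM (-2.40, limma adjusted p = 0.0018, or 0.019 with that term). Krt5 was at 1582 and 1643 TPM in mean, and Krt10, a keratin of the upper layers, ranged from 217 to 1396 TPM in CON and from 232 to 633 TPM in MOD. Krt1 and Krtdap did not pass either. Markers of skeletal muscle summed to 2085 to 7270 TPM in the controls, against 12979 to 20570 TPM after imiquimod, with 3 of 4 higher (1 of 4 with the H2-Ea term), and 5 of 5 hair follicle keratins fell, also with that term.

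Some interferon-stimulated genes rose in MOD, and none fell by the test. Of the 33 members tested, 11 rose and 0 fell (limma, adjusted p below 0.05), where 12.5% of all tested genes rose and 36.1% fell. The 11 were Rsad2, Bst2, Oas1a, Oas2, Rtp4, Parp14 and Trim30a among type I-led genes and Gbp2, Gbp3, Gbp5 and Irgm1 among interferon-gamma-led genes. They rose 1.78-fold to 6.17-fold in mean TPM. The log2 difference was positive in 32 of the 33, the exception being Isg15, whose sign turned positive once the H2-Ea term was added and in each of the 3 other scalings. The 3 MOD libraries lay above the 3 CON libraries for 14 of the 33, against 15.5% of tested genes, and below them for 0, against 44% of tested genes. With the H2-Ea term 0 of 33 passed in limma (4 had an unadjusted p below 0.05; no other tool was run), and 4.35% of all tested genes were then higher and 17.9% lower. All 11 kept a positive difference there, between 0.37 and 1.21. The count was 6 without CON 1, 7 without CON 3 and 7 without MOD 2, and 18 with quantile normalization, where 18.4% of all tested genes were higher. All genes called, higher or lower, numbered 5650, 7216 and 5494 in these leave-one-out fits, in that order, against 7452 with all libraries.

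**Figure D1:**
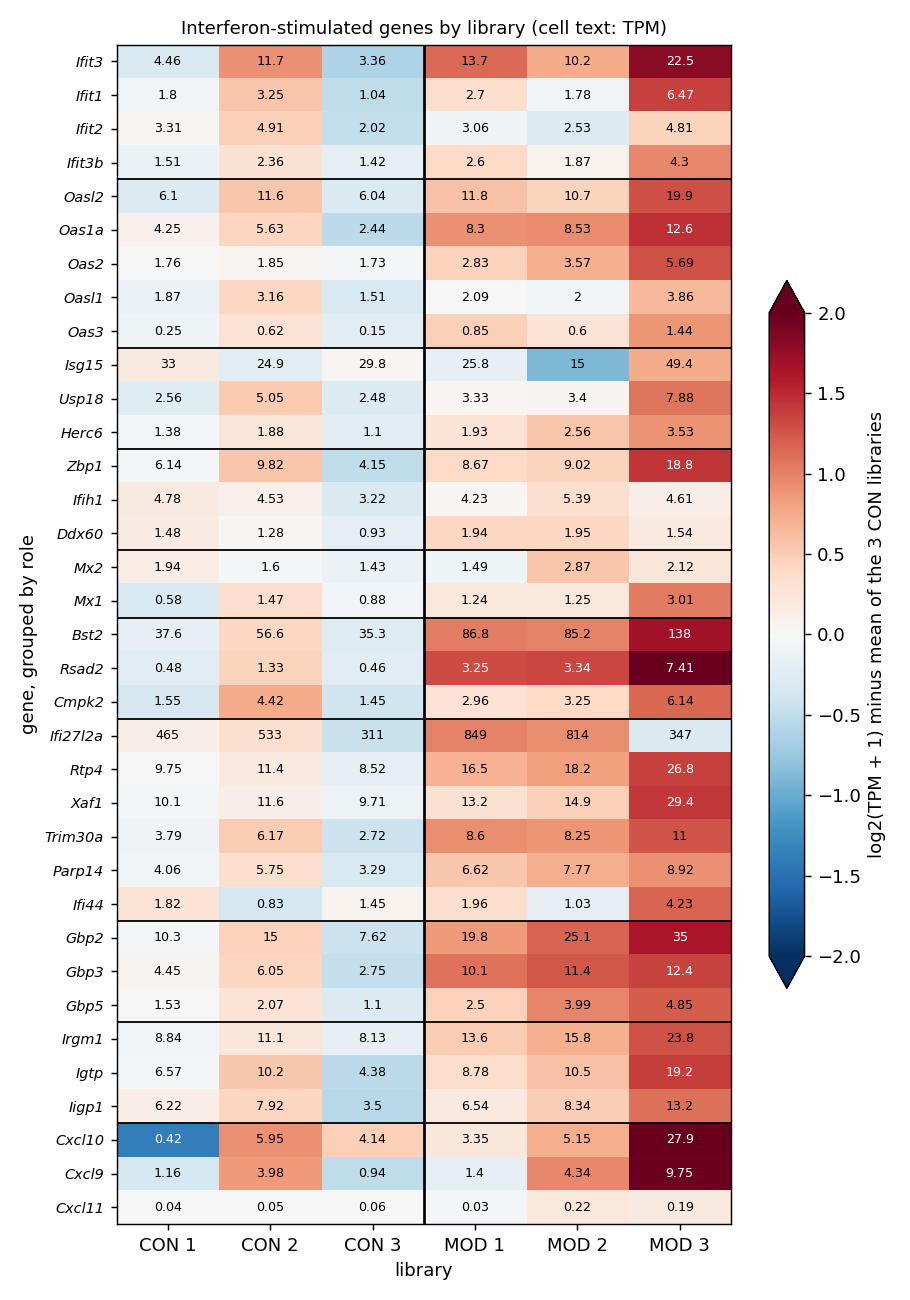
Heat map of the 35 members (rows, grouped by role with black lines) in the 6 libraries (columns). Colour is log2(TPM + 1) minus the mean of the 3 CON libraries and the text in each cell is TPM. MOD 3 is the highest of the 6 libraries for 29 of the 35 members, and CON 2 is the highest control for 29 of them.

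The change was uneven among libraries. MOD 3 was the highest of the 6 libraries for 28 of the 33 tested members, against 13.6% of all tested genes. CON 2 was the highest control for 28 of the 33, against 44.3% of all tested genes, and CON 3 the lowest control for 29, against 43.1%. CON 2 stood at or above MOD 1 for 13 of the 33 members, at or above MOD 2 for 12 and at or above MOD 3 for 2. The same was true of 73.6, 69.8 and 68% of all tested genes. Over the 35 members, MOD 3 held a median of 1.78 times the mean of MOD 1 and MOD 2.

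Rsad2 (ENSMUSG00000020641), which encodes viperin, an enzyme that makes a chain-terminating nucleotide, had the largest log2 difference of the members. It stood at 0.48, 1.33 and 0.46 TPM in CON 1 to 3 and at 3.25, 3.34 and 7.41 TPM in MOD 1 to 3. Among the controls only CON 2 reached 1 TPM, so Rsad2 met the filter for testing through its MOD values. The groups did not overlap, and MOD 3 was over the other MOD libraries. The log2 difference was 1.65 (SE 0.33, limma adjusted p = 0.0081; with the H2-Ea term 1.21, adjusted p = 0.087). Its neighbour on chromosome 12, Cmpk2, a mitochondrial nucleotide kinase, was at 1.55, 4.42 and 1.45 TPM in the controls, against 2.96, 3.25 and 6.14 TPM after imiquimod. CON 2 lay above MOD 1 and MOD 2 for Cmpk2, and the difference did not pass (0.61, limma adjusted p = 0.22), except without CON 2 (0.98, adjusted p = 0.041; 0.041 to 0.50 with each library left out in turn). With the H2-Ea term it was -0.14.

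Bst2 (ENSMUSG00000046718), which encodes tetherin, a membrane protein that holds budding virus at the cell surface, was the most abundant of the 11 that rose. It was at 37.6, 56.6 and 35.3 TPM in the controls, against 86.8, 85.2 and 138 TPM after imiquimod, without overlap. Its mean rose 2.40-fold, from 43.1 ± 11.7 to 103 ± 30.1 TPM (SD, n = 3 per group; log2 difference 1.24, SE 0.26, limma adjusted p = 0.0089; with the H2-Ea term 0.82, adjusted p = 0.095). Bst2 is also a marker of plasmacytoid dendritic cells. Siglech, another marker of these cells, stood at 2.71, 1.13 and 0.61 TPM in the controls, against 0.91, 0.95 and 0.89 TPM after imiquimod. Of the 8 markers of that cell type, 3 were tested and 1 rose, Cox6a2, which striated muscle also expresses (2.56, or 2.36 with the H2-Ea term). Spib, Ccr9 and Klk1 were below 1 TPM in all libraries. Without overlap, 2 of the 8 were higher in MOD, Cox6a2 and Spib (0.05 to 0.10 against 0.24 to 0.49 TPM). Pacsin1 was lower without overlap (0.51 to 1.21 against 0.09 to 0.16 TPM). Of all tested genes, 15.5% were higher and 44% lower without overlap. The 8 markers summed to 67.4 to 164 TPM in the controls, against 376 to 540 TPM after imiquimod, of which Cox6a2 made up 348 to 515 TPM in MOD.

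The oligoadenylate synthetases, which activate the nuclease RNase L, divided into genes that rose and genes that did not pass. Oas1a rose from 4.25, 5.63 and 2.44 TPM in CON to 8.30, 8.53 and 12.6 TPM after imiquimod (log2 difference 1.11, SE 0.28, limma adjusted p = 0.018; with the H2-Ea term 0.68, adjusted p = 0.18). Oas2 was nearly level in the controls, at 1.76, 1.85 and 1.73 TPM, and was at 2.83, 3.57 and 5.69 TPM in MOD (0.82, SE 0.23, limma adjusted p = 0.025; with the H2-Ea term 0.78, SE 0.35, adjusted p = 0.14). Neither overlapped between groups. Oas3 was low, at 0.25, 0.62 and 0.15 TPM in the controls, against 0.85, 0.60 and 1.44 TPM after imiquimod, and was not tested. Of the related genes Oasl1 and Oasl2, Oasl2 was at 6.04 to 11.6 TPM in the controls, against 10.7 to 19.9 TPM after imiquimod (0.77, limma adjusted p = 0.082; 0.22 with the H2-Ea term), and passed without CON 2 (adjusted p = 0.028) and under median-of-ratios scaling (adjusted p = 0.027). Oasl1 lay at 1.51 to 3.16 TPM in the controls, against 2.00 to 3.86 TPM after imiquimod, with overlap (0.20, or -0.23 with the H2-Ea term). Oas1a shares much of its sequence with the other Oas1 copies beside it, and its value is uncertain for that reason.

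None of the 4 Ifit genes, whose proteins bind foreign RNA, passed the test, where 12.5% of all tested genes rose. Ifit3, the most abundant, was at 4.46, 11.7 and 3.36 TPM in the controls, against 13.7, 10.2 and 22.5 TPM after imiquimod. CON 2 lay above MOD 2, and the difference of 1.22 (SE 0.45) missed the threshold (limma adjusted p = 0.059), but passed without CON 2 (1.68, adjusted p = 0.012) and, with adjusted p of 0.025 to 0.048, in each of the 3 other scalings, while with the H2-Ea term it was 0.31. Ifit1 stood at 1.80, 3.25 and 1.04 TPM in the controls, against 2.70, 1.78 and 6.47 TPM after imiquimod. Its means were 2.03 and 3.65 TPM, and MOD 3 was the only MOD library above CON 2. The log2 difference was 0.55 (limma adjusted p = 0.31), and it was 0.00 once the H2-Ea term was added. Ifit2 was highest in CON 2, at 4.91 TPM, just over the 4.81 TPM of MOD 3. Ifit3b, at 1.42 to 2.36 TPM in the controls, against 1.87 to 4.30 TPM after imiquimod, is a close copy of Ifit3, and reads can pass between these genes.

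Isg15 (ENSMUSG00000035692), which encodes a ubiquitin-like protein attached to other proteins, was at 32.97, 24.9 and 29.8 TPM in the controls, against 25.8, 15.03 and 49.4 TPM after imiquimod. MOD libraries were both the highest and the lowest of the 6. The log2 difference was -0.11, with a 95% interval from -1.04 to 0.82 (limma adjusted p = 0.84). Usp18, which removes Isg15 and dampens type I receptor signalling, was at 2.56, 5.05 and 2.48 TPM in the controls, against 3.33, 3.40 and 7.88 TPM after imiquimod (0.39, limma adjusted p = 0.39). CON 2 again lay above MOD 1 and MOD 2. Herc6, the ligase that attaches Isg15 in mice, did not overlap between groups, at 1.10 to 1.88 TPM in the controls, against 1.93 to 3.53 TPM after imiquimod, but did not pass (0.57, limma adjusted p = 0.072; 0.33 with the H2-Ea term), except in the 3 other scalings (adjusted p of 0.023 to 0.047).

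**Figure D2:**
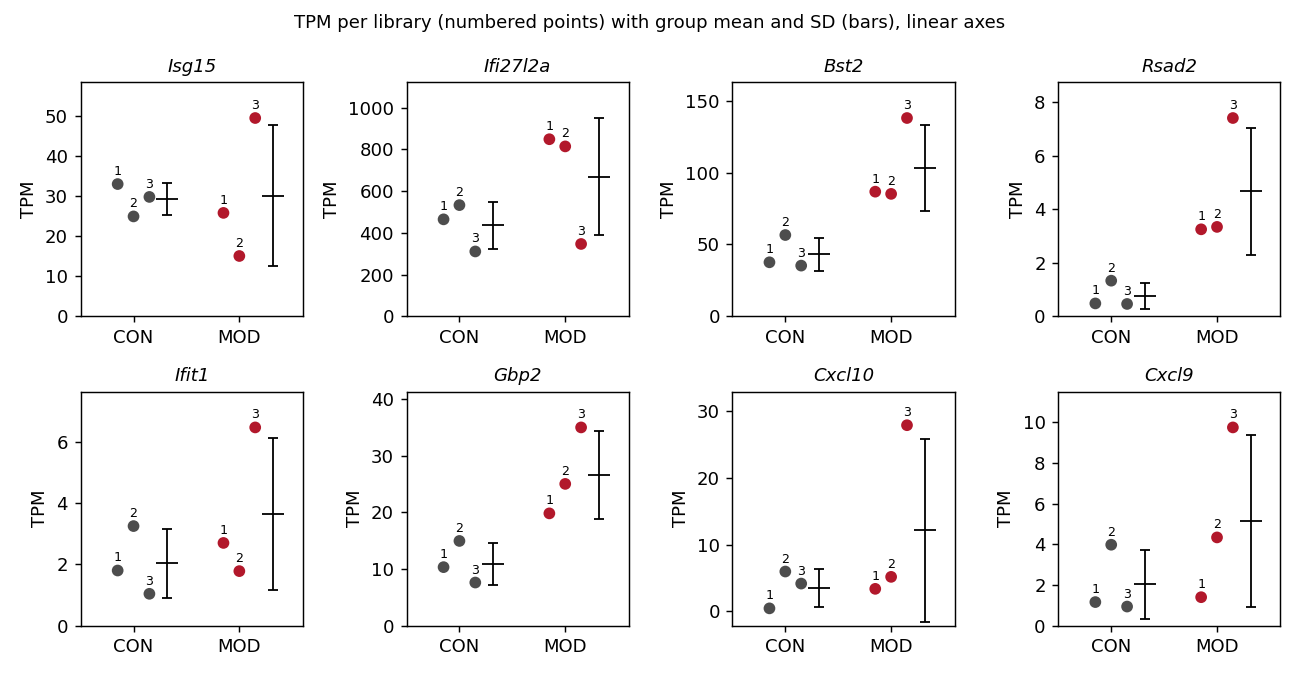
TPM of 8 members in CON (grey) and MOD (red), 1 point per library with its replicate number, and the group mean with SD (n = 3) beside the points. Bst2, Rsad2 and Gbp2 do not overlap between groups, Isg15 and Cxcl10 are highest in MOD 3, and Ifi27l2a is lowest there among MOD libraries.

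None of the 3 RNA and nucleic acid sensors passed the test, where 12.5% of all tested genes rose. Ifih1, the double-stranded RNA sensor MDA5, was at 4.78, 4.53 and 3.22 TPM in the controls, against 4.23, 5.39 and 4.61 TPM after imiquimod (log2 difference 0.16, 95% interval -0.28 to 0.60, limma adjusted p = 0.50). Ddx60, a helicase, was at 0.93 to 1.48 TPM in the controls, against 1.54 to 1.95 TPM after imiquimod (0.34, limma adjusted p = 0.15), without overlap. Zbp1, a sensor of Z-form nucleic acid that can trigger cell death, was at 6.14, 9.82 and 4.15 TPM in the controls, against 8.67, 9.02 and 18.8 TPM after imiquimod (0.76, limma adjusted p = 0.13; 0.20 with the H2-Ea term; adjusted p = 0.040 with quantile normalization), so that only MOD 3 lay above CON 2. The antiviral GTPases Mx1 and Mx2 were low, with MOD means of 1.83 and 2.16 TPM, and overlapped between groups.

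Among the other type I-led genes 3 of 6 rose, against 12.5% of all tested genes. Rtp4 was at 9.75, 11.4 and 8.52 TPM in the controls, against 16.5, 18.2 and 26.8 TPM after imiquimod (log2 difference 0.96, SE 0.21, limma adjusted p = 0.011; with the H2-Ea term 0.76, adjusted p = 0.11). Trim30a, a restrainer of Toll-like receptor signalling in mice, was at 3.79, 6.17 and 2.72 TPM in the controls, against 8.60, 8.25 and 11.0 TPM after imiquimod (1.02, limma adjusted p = 0.019; with the H2-Ea term 0.51, adjusted p = 0.20). Parp14, an ADP-ribosyltransferase, was at 4.06, 5.75 and 3.29 TPM in the controls, against 6.62, 7.77 and 8.92 TPM after imiquimod (0.73, limma adjusted p = 0.029; with the H2-Ea term 0.37, adjusted p = 0.30). Groups did not overlap for any of the 3, where MOD lay above CON without overlap for 15.5% of all tested genes. Xaf1, a partner of the apoptosis inhibitor XIAP, did not overlap either, at 9.71 to 11.6 TPM against 13.2, 14.9 and 29.4 TPM, but missed the threshold (0.73, limma adjusted p = 0.077), which it passed with median-of-ratios scaling (adjusted p = 0.024) and quantile normalization (adjusted p = 0.020). Its difference was 0.59 with the H2-Ea term. Ifi44 was at 1.82, 0.83 and 1.45 TPM in the controls, against 1.96, 1.03 and 4.23 TPM after imiquimod.

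Ifi27l2a, a small hydrophobic protein gene strongly induced by type I interferon, was by far the most abundant member and ran against most of the others within MOD. It stood at 465, 533 and 311 TPM in the controls, against 849, 814 and 347 TPM after imiquimod. MOD 3 held 0.417 times the mean of MOD 1 and MOD 2, where the median member held 1.78 times. The difference of 0.55 did not pass (limma adjusted p = 0.27), except without MOD 3 (0.97, adjusted p = 0.031; 0.031 to 0.58 with each library left out in turn). Because of this gene, the summed TPM of the members was higher in MOD 1 (1151) and MOD 2 (1124) than in MOD 3 (897). Without it, the sum was 159 to 256 TPM in CON, 303 and 310 TPM in MOD 1 and MOD 2 and 551 TPM in MOD 3.

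All 3 guanylate-binding protein genes rose, against 12.5% of all tested genes. These GTPases attack the vacuoles of intracellular pathogens and are classical interferon-gamma targets. Gbp2 (ENSMUSG00000028270) was at 10.3, 14.97 and 7.62 TPM in the controls, against 19.8, 25.1 and 35.0 TPM after imiquimod (log2 difference 1.22, SE 0.29, limma adjusted p = 0.014; with the H2-Ea term 0.75, adjusted p = 0.15). Gbp3 (ENSMUSG00000028268) had the smallest adjusted p of the members. It was at 4.45, 6.05 and 2.75 TPM in the controls, against 10.1, 11.4 and 12.4 TPM after imiquimod (1.23, SE 0.25, limma adjusted p = 0.0079; with the H2-Ea term 0.80, adjusted p = 0.083). Gbp3 was also the most even of the 3 within MOD, MOD 3 holding 1.15 times the mean of MOD 1 and MOD 2. Gbp5 was at 1.53, 2.07 and 1.10 TPM in the controls, against 2.5, 3.99 and 4.85 TPM after imiquimod (0.88, limma adjusted p = 0.026; with the H2-Ea term 0.61, adjusted p = 0.22). All 3 genes belong to a cluster of similar copies on chromosome 3 and may share reads.

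Of the immunity-related GTPases, which guard against intracellular pathogens, 1 of 3 rose, against 12.5% of all tested genes. Irgm1, a regulator of the others, was at 8.84, 11.1 and 8.13 TPM in the controls, against 13.6, 15.8 and 23.8 TPM after imiquimod, without overlap (log2 difference 0.83, SE 0.23, limma adjusted p = 0.024; with the H2-Ea term 0.60, adjusted p = 0.20). Igtp was at 6.57, 10.2 and 4.38 TPM in the controls, against 8.78, 10.5 and 19.2 TPM after imiquimod (0.77, limma adjusted p = 0.12; 0.23 with the H2-Ea term), and passed with median-of-ratios scaling (adjusted p = 0.042) and quantile normalization (adjusted p = 0.032). Iigp1 was at 6.22, 7.92 and 3.50 TPM in the controls, against 6.54, 8.34 and 13.2 TPM after imiquimod (0.60, limma adjusted p = 0.17; 0.17 with the H2-Ea term), and passed with quantile normalization (adjusted p = 0.040). For Igtp and Iigp1, MOD 1 lay below CON 2 and MOD 2 just above it.

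The CXCR3 ligands, chemokines that draw T and NK cells, varied most within MOD among the roles described. Cxcl10 was at 0.42, 5.95 and 4.14 TPM in the controls, against 3.35, 5.15 and 27.9 TPM after imiquimod. MOD 3 held 6.57 times the mean of MOD 1 and MOD 2, both of which lay below CON 2. The log2 difference of 1.31 had an SE of 0.85 (limma adjusted p = 0.24). Cxcl9 was at 1.16, 3.98 and 0.94 TPM in the controls, against 1.4, 4.34 and 9.75 TPM after imiquimod (0.91, SE 0.60, limma adjusted p = 0.24; the H2-Ea term brought the difference to 0.05). Cxcl11 was at most 0.22 TPM in any library and was not tested. Their receptor gene Cxcr3 rose from 1.09, 1.72 and 0.79 TPM in CON to 2.68, 2.68 and 2.18 TPM in MOD (0.69, limma adjusted p = 0.030, or 0.29 with the H2-Ea term), and was lowest in MOD 3 among the MOD libraries.

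Of the 11 calls, 5 held whichever library was left out (Rsad2, Bst2, Rtp4, Gbp2 and Gbp3, limma adjusted p up to 0.040). The other calls, 6 in number, were each lost without at least 1 library. Oas1a lost its call without MOD 3 (adjusted p = 0.054). Trim30a lost it without CON 1, MOD 1 or MOD 3 (up to 0.058), Irgm1 without CON 1, CON 3 or MOD 2 (up to 0.064), and Oas2 without CON 1, CON 2, CON 3 or MOD 2 (up to 0.063). Gbp5 lost it without CON 1, CON 3, MOD 2 or MOD 3 (up to 0.078), and Parp14 without any library but CON 2 (up to 0.084).

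**Figure D3:**
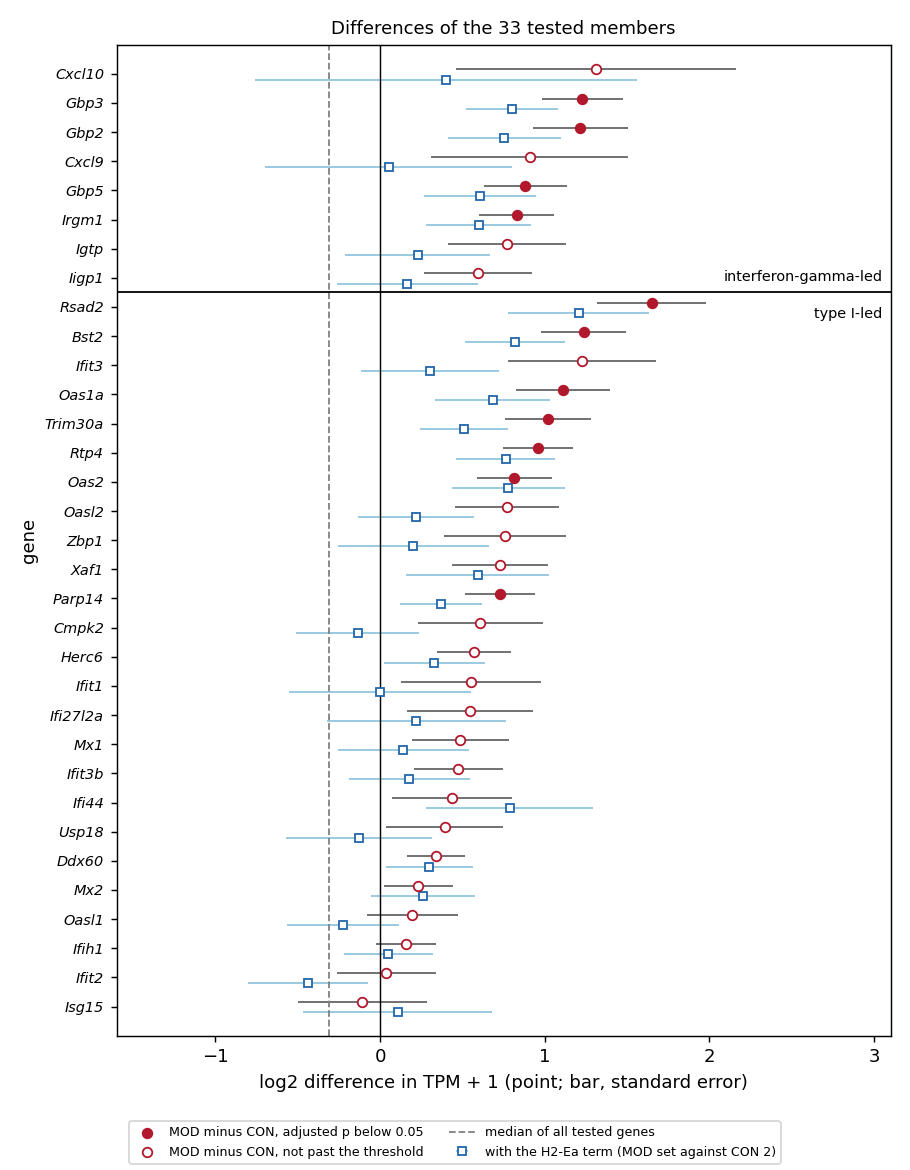
Log2 difference of TPM + 1 between MOD and CON for the 33 tested members (circles, filled where the limma adjusted p was below 0.05) and with the H2-Ea term (squares). Bars are standard errors. All 11 filled circles lie at 0.73 or more, the squares of these genes lie between 0.37 and 1.21, and the dashed line is the median of all tested genes at -0.31.

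Set side by side, interferon-gamma-led genes had the higher median difference and the higher share of calls, but the difference between the 2 groups was not tested. Of 8 tested interferon-gamma-led members 4 rose, against 12.5% of all tested genes, with a median log2 difference of 0.89. Of these 4, 3 were guanylate-binding protein genes, similar copies that may share reads. Outside them, 1 of 3 immunity-related GTPases and 0 of 2 tested CXCR3 ligands rose. Of 25 tested type I-led members 7 rose, with a median of 0.57. With the H2-Ea term the medians were 0.50 and 0.26, and without MOD 3 they were 0.55 and 0.41. By library, the median deviation of type I-led members from the control mean was -0.04, 0.36 and -0.28 in CON 1 to 3 and 0.39, 0.45 and 1.14 in MOD 1 to 3. For interferon-gamma-led members it was -0.03, 0.45 and -0.46 in CON and 0.40, 0.84 and 1.37 in MOD. In MOD 1 the medians of both groups were about that of CON 2. There 4 of 8 interferon-gamma-led and 16 of 25 type I-led genes stood above CON 2, against 4048 of all 15323 tested genes. In MOD 2 the interferon-gamma-led genes stood above CON 2 in 7 of 8 cases and the type I-led genes in 14 of 25, against 4624 of all 15323 tested genes. In MOD 3 these counts were 8 of 8 and 23 of 25, against 4907 of 15323.

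Immune cell markers differed between the same libraries. In bulk skin a change in the number of cells of a type cannot be told from a change in RNA per cell. Of all tested genes 12.5% rose. Of 9 macrophage markers 8 rose, and their median log2 difference went from 1.68 to 0.93 with the H2-Ea term. Their summed TPM was 201 to 725 in CON, highest in CON 2, and 1466 to 1930 in MOD. None of them was at 0 in any library. Within MOD their median deviations were 1.83, 2.07 and 1.73, and 2 of the 9 were highest in MOD 3. Of 10 T and NK cell markers 7 were tested and 1, Cd3g, rose. The median log2 difference of the 7 was 0.40, and 0.08 with the H2-Ea term. Their sum was 44.5 to 56.3 TPM in CON, highest in CON 2, and 55.2, 56.8 and 89.6 TPM in MOD 1 to 3. All 7 tested T and NK cell markers were highest in MOD 3, while Gzmb was listed at 0 in CON 3 and Cd8a stayed below 1 TPM in all libraries. Of other cell types, 3 of 5 monocyte, 5 of 6 endothelial and 0 of 4 tested conventional dendritic cell markers rose, and 1 of the last fell. With the H2-Ea term median log2 differences went from 1.76 to 1.28 (monocyte), 1.73 to 1.56 (endothelial) and 0.24 to 0.02 (conventional dendritic cell). Neutrophil markers were highest in MOD 1 for all 6 tested, which all rose, with a median log2 difference of 3.60 with and without the H2-Ea term. The 7 listed neutrophil markers summed to 24.2 to 75.8 TPM in the controls, against 2421 to 7565 TPM after imiquimod. Nearly all of the MOD sums came from S100a8 (1403 to 3915 TPM) and S100a9 (991 to 3565 TPM), and every other neutrophil marker was at most 59.6 TPM. The neutrophil gene Retnlg was listed at 0 in all CON libraries. The part of these cells in the members' differences was not tested.

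**Figure D4:**
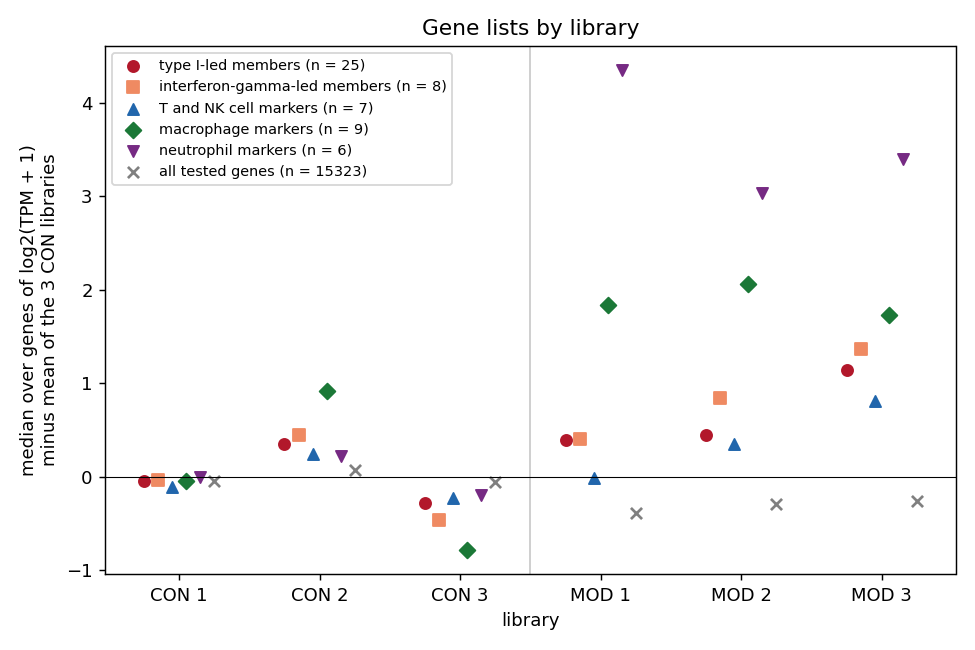
Median over genes of log2(TPM + 1) minus the mean of the 3 CON libraries, for each library (columns) and gene list (symbols; n is the number of tested genes). Members of both groups and the T and NK cell markers are highest in MOD 3, macrophage markers in MOD 2 and neutrophil markers in MOD 1.

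The interferon genes themselves were at or near 0. Of 21 ligand genes 17 were listed at 0 in all 6 libraries, among them Ifnb1, Ifne and all 13 numbered Ifna genes, and the highest value of any was 0.20 TPM. Ifng was at 0.05, 0.19 and 0.11 TPM in the controls, against 0.06, 0.20 and 0.12 TPM after imiquimod. Ifnk, expressed by keratinocytes, was at 0.09 TPM in CON 1 and CON 3 and listed at 0 elsewhere. No ligand met the filter for testing, and whether some were transcribed below detection cannot be said without the depth.

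Receptor genes changed unequally. Of 6 receptor genes 3 rose and 1 fell, where 12.5% of all tested genes rose and 36.1% fell. Ifnar2 rose from 20.9, 27.0 and 21.9 TPM in CON to 54.2, 58.1 and 42.5 TPM after imiquimod (log2 difference 1.11, limma adjusted p = 0.0034), whereas its partner Ifnar1 was at 20.2 ± 2.62 and 21.5 ± 1.4 TPM (SD, n = 3; 0.09, limma adjusted p = 0.60). Ifngr1 rose from 45.6 ± 9.55 to 92.8 ± 9.50 TPM (SD, n = 3; 1.02, limma adjusted p = 0.0046), and Ifngr2 was at 18.5 ± 2.25 and 22.4 ± 4.79 TPM (SD, n = 3; 0.25, limma adjusted p = 0.30). With median-of-ratios scaling Ifnar1 (0.40) and Ifngr2 (0.55) also passed, both at an adjusted p of 0.03. Ifnar2 and Ifngr1 still passed when the H2-Ea term was added (adjusted p = 0.041 and 0.046). Il10rb, which also serves the lambda interferon receptor, rose (1.08, limma adjusted p = 0.0061), while the lambda chain Ifnlr1 fell from 2.96 to 1.43 TPM in mean (-0.72, limma adjusted p = 0.020, or -0.51 and 0.067 with median-of-ratios scaling). Both missed the threshold once that term was added (adjusted p = 0.054 and 0.12).

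Of 14 signalling genes 3 rose and 0 fell, against 8 and 0 with median-of-ratios scaling or quantile normalization. Over all tested genes 12.5% rose, or 19.2% and 18.4% with these scalings. Stat2 (-0.07, limma adjusted p = 0.80) and Irf9 (0.30, limma adjusted p = 0.21) did not pass, and Stat2 was positive with median-of-ratios scaling (0.23). Irf7, the amplifier of type I interferon, was at 11.3, 13.4 and 11.3 TPM in the controls, against 13.7, 14.4 and 30.3 TPM after imiquimod (0.57, limma adjusted p = 0.16), again with MOD 3 apart. Irf1, the factor led by interferon-gamma, rose from 13.1, 17.2 and 14.2 TPM to 20.7, 24.7 and 31.5 TPM (0.74, limma adjusted p = 0.019). Irf8 (1.02, limma adjusted p = 0.0099) and Irf5 (0.62, limma adjusted p = 0.027), both prominent in myeloid cells, rose as well. With the H2-Ea term 0 of the 14 passed.

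Of 12 nucleic acid sensing genes 4 rose and 1 fell, against 7 and 0 with median-of-ratios scaling or quantile normalization. The shares of all tested genes that rose were 12.5%, and 19.2% and 18.4% with these scalings. Tlr7, the receptor of imiquimod, was at 2.03, 3.36 and 0.56 TPM in the controls, against 10.6, 20.8 and 5.30 TPM after imiquimod, so that MOD 3, highest for most members, was the lowest MOD library for Tlr7 (log2 difference 2.09, limma adjusted p = 0.018, or 0.17 with the H2-Ea term). Tlr9, a DNA receptor, rose from 0.78, 1.16 and 0.30 TPM to 1.38, 2.34 and 2.71 TPM (0.85, limma adjusted p = 0.035, or 0.30 with the H2-Ea term). Unc93b1, which carries both receptors to endosomes, rose from 23.5, 40.9 and 20.3 TPM to 105, 124 and 125 TPM (2.08, limma adjusted p = 0.0020) and kept its call with that term (adjusted p = 0.013). Sting1, the adaptor of cytosolic DNA sensing, rose as well (0.72, limma adjusted p = 0.012, or 0.13 with that term). Traf6, an adaptor of Toll-like receptors, fell from 9.88 ± 1.85 to 5.48 ± 0.95 TPM (SD, n = 3; -0.74, limma adjusted p = 0.019, or 0.085 with the H2-Ea term and 0.077 with median-of-ratios scaling).

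Of 50 further interferon-response genes tested, none of them a member, 22 rose and 0 fell, where 12.5% of all tested genes rose and 36.1% fell. Their median log2 difference was 0.61, and 0.32 with the H2-Ea term. The count was 35 with median-of-ratios scaling and 37 with quantile normalization. Of all tested genes 19.2% were higher with median-of-ratios scaling and 18.4% with quantile normalization. The largest rises among the 50 were those of Ifitm1, Epsti1, Slfn2 and Slfn1. Ifitm1, a membrane protein that blocks virus entry, was at 19.0, 26.4 and 19.4 TPM in the controls, against 150, 78.7 and 103 TPM after imiquimod (2.27, limma adjusted p = 0.0016, or 0.021 with the H2-Ea term). Slfn2, a schlafen gene of leukocytes, was at 10.9, 17.6 and 10.2 TPM in the controls, against 40.3, 45.5 and 62.1 TPM after imiquimod (1.87, limma adjusted p = 0.0024, or 0.024). Slfn1 was at 0.82 to 1.72 TPM in the controls, against 5.39 to 8.29 TPM after imiquimod (1.73, limma adjusted p = 0.0024, or 0.029), and Epsti1 was at 1.5, 7.31 and 0.79 TPM in the controls, against 12.9 to 17.4 TPM after imiquimod (2.23, limma adjusted p = 0.015, or 0.067). Sp100, a nuclear body protein gene, also rose (1.16, limma adjusted p = 0.0053), with a difference of 0.75 once the H2-Ea term was added. MOD 3 was the highest library for 32 of these 50 genes.

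The promoter matches can be set beside the calls. Of the 8 members that rose and have a window, 8 held an ISRE core, and of the 16 members tested, not called and with a window, 7 did. Isg15 and Ifit1 are among these 7. Among tested genes other than members, 19.7% of the 355 with an ISRE core rose and 31.3% fell, against 11.7% and 38.3% of the 10907 without. Their median log2 differences were -0.23 and -0.33. These shares are a description, and promoters differ in other ways, such as base composition, that were not compared. The further interferon-response genes were not left out of the genes other than members.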

How the data were processed

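The authors deposited 1 table of TPM values for 57010 genes in 6 libraries of mouse back skin. Per the labels' protocols, TRIzol extraction and DNase I digestion came before a SMARTER mRNA-Seq library preparation. The submitters' processing notes name GRCm39 as the build. Neither aligner, annotation nor quantification program is given in the sources used here. Columns were assigned by the sample descriptions: CON 1 to 3 are the columns CON1, CON3 and CON4. Any 2 libraries held equal values for 0.0653 to 1.02% of tested genes, so none repeats another.

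Genes that reached 1 TPM in 3 or more of 6 libraries were fitted as log2(TPM + 1) in limma 3.58.1 (R 4.3.3). Settings were eBayes with trend, two-sided tests, Benjamini-Hochberg over all tested genes and a threshold of 0.05. The fit was run on simulated normal values that held no split among the controls, so that run cannot speak to the H2-Ea split. Members near 0 in CON pass the filter of 1 TPM through MOD. Log2 differences understate the change of low genes. A TPM value is a share of a library, so more of the abundant transcripts means less of all others. Members and lists were chosen with earlier results of these data known. All members are named. From each pathway list, up to 4 genes with the largest difference past the threshold are named, with key ligands, receptors and factors. Sp100 was named after its value was seen. Alternatives were 2 pseudocounts, 2 filters, 3 scalings, no trend, a replicate block, an H2-Ea term (present at 15 TPM or more) and leaving out each library. The values of 1 signalling gene are not reported here.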

Additional observations from a re-analysis of the deposited data

How the results depend on the processing

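The 16 alternatives gave 0 members lower in every case. The count of members called higher (11) was 6 with no filter on low values, 18 with quantile normalization, 0 with the H2-Ea term and 6 to 13 with each library left out. For type I-led members (7) it was 4 with no filter, 11 with median-of-ratios scaling, 12 with quantile normalization, 0 with the H2-Ea term and 4 to 9 with a library left out. For interferon-gamma-led members (4) it was 2 with no filter, 0 with the H2-Ea term and 2 to 4 with a library left out. All genes called numbered 7452, 3414 with the H2-Ea term, which leaves 3 residual degrees of freedom, and 4862 (without MOD 1) to 7216 with a library left out. The causes of these shifts, the one with the H2-Ea term included, were not tested. With no filter on low values, 6149 of 30635 genes were called.

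The sign of Isg15 (-0.11) turned with median-of-ratios scaling (0.20), quantile normalization (0.23), without the 20 most abundant genes (0.0404) and with the H2-Ea term (0.11), in a range of -0.54 to 0.29 with a library left out. With the H2-Ea term the sign also turned for Ifit2 (-0.44), Oasl1 (-0.23), Usp18 (-0.13) and Cmpk2 (-0.14). Leaving out a library gave -0.21 to 0.28 for Ifit2 and -0.029 to 0.41 for Oasl1.

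Whether replicate numbers of CON and MOD pair the samples was not settled, since deviations from means of 3 libraries cannot decide it. Deviations from the group means correlated at 0.0046, 0.069 and 0.066 across genes for the same numbers, and at -0.104 to 0.038 for different numbers. CON 2 and CON 3 correlated best with the MOD library of the same number, and CON 1 with MOD 2. With the replicate block 10 members were higher, Parp14 being lost (adjusted p = 0.051), and 7257 genes were called. Depth is unknown in TPM, so what it limits cannot be stated.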
